A study of Mus musculus with 5 samples.

Results

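The genes described here are 10 transcription factors of red cell and blood formation, Gata1, Klf1, Nfe2, Tal1, Gfi1b, Lmo2, Zfpm1, Lyl1, Myb and Bcl11a, chosen by symbol from the 23441 gene rows of a table of read counts. All 10 had a row, and all 10 passed the filter on low counts, which left 12710 genes in the test. The counts came from poly(A) RNA of mouse mandibular tissue at embryonic day 10.5. The 2 dCKO libraries carried Wnt1Cre with floxed alleles of both Yap and Taz (Wnt1Cre; Yapf/f, Tazf/f) on a C57BL/6J x CBA/J; 129SvEv background. The 3 control libraries carried the same floxed alleles (Yapf/f, Tazf/f), with no Cre named, on the 129SvEv background, so genotype and strain background cannot be told apart. Wnt1Cre acts in the premigratory neural crest, the source of most arch mesenchyme; blood cells are not of neural crest origin. Of the deleted genes, Yap1 had 175 and 170 CPM (counts scaled to library size by TMM) in dCKO replicates 1 and 2, against 312, 475 and 512 CPM in control replicates 1, 2 and 3. Wwtr1, which encodes TAZ, had 22.7 and 22.8 CPM in dCKO, against 38.4, 65.1 and 66.2 CPM in control, so both were lower in each dCKO library, as labelled. Library totals ran from 11346480 to 13298973 counts in dCKO and from 6491137 to 7439419 in control. Whether each library is a separate embryo or litter is not stated in the labels, and the p-values reflect the spread among these 5 samples, some of which may be technical.

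Red cell formation is driven by a small set of DNA-binding proteins and their cofactors. GATA1 binds GATA motifs together with its cofactor FOG1, the product of Zfpm1. TAL1 or LYL1 pairs with an E protein on E-box motifs and is joined to GATA1 through LMO2 and LDB1. KLF1 binds CACCC boxes of globin and membrane genes, NFE2 works as a dimer with a small MAF protein, and GFI1B is a repressor that recruits LSD1 and CoREST. MYB maintains haematopoietic progenitors of the definitive lineage, and BCL11A represses embryonic globin genes in definitive red cells. At this stage of mouse development most circulating red cells are primitive erythroid cells from the yolk sac.

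Promoters are shown for 4 of these genes because the factors are known to act on each other's genes through such motifs. The RefSeq table (GRCm38.p6, another build than the mm9 named for the counts) matched 8 of the 10 by symbol, at 9 start sites, with 250 bases before and 50 after each start. Both strands were searched for 4 motifs. The GATA motif was read as AGATAA or as TGATAA, and also as AGATAG or as TGATAG. The CACCC box was CCACACCC, CCGCACCC or CCCCACCC, and the E-box was CAGATG or else CAGCTG. The NF-E2 element was the last. No base fell in more than 1 match. Capitals mark the matches on either strand.
Klf1, chr8:84901732-84902031, plus strand: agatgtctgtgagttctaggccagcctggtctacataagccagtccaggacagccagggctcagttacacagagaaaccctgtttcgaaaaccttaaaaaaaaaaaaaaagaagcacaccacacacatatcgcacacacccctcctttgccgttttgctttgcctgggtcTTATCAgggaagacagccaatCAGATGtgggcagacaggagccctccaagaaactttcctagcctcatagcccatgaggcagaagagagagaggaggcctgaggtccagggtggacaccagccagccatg
Gata1, chrX:7967861-7968160, minus strand: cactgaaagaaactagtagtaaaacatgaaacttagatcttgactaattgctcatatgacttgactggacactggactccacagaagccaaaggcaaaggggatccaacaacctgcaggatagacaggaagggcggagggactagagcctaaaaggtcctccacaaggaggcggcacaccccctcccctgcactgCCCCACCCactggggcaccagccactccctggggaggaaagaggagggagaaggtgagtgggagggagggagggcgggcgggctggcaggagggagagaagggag
Gfi1b, chr2:28621933-28622232, minus strand: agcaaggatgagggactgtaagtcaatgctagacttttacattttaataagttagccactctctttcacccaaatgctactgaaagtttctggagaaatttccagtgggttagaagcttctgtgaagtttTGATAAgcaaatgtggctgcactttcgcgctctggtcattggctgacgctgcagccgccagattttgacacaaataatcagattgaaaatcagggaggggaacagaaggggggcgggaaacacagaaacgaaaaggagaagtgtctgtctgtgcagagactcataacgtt
Myb, chr10:21160935-21161234, minus strand: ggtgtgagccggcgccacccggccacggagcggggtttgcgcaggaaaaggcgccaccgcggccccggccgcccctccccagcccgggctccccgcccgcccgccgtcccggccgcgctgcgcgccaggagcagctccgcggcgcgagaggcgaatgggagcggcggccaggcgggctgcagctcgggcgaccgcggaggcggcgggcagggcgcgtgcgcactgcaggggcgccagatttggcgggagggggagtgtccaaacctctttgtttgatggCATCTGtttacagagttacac
The Klf1 window held a GATA motif and an E-box, Gata1 a CACCC box, Gfi1b a GATA motif and Myb an E-box after its start. Of the 8 genes, 3 held GATA letters (Klf1, Tal1 and Gfi1b), 3 a CACCC box (Gata1, Lyl1 and Bcl11a), 3 an E-box (Klf1, Tal1 and Myb) and 0 the NF-E2 element. The Zfpm1 window and the Tal1 window at chr4:115057561-115057860 held no match. Tal1 had 2 windows, so these counts are of genes and the shares that follow are of windows. Among all 32851 promoter windows of that length, 29.8% held GATA letters, 14.5% a CACCC box, 30.6% an E-box and 0.289% the NF-E2 element. GATA and E-box letters were thus found in many promoters and the NF-E2 element in few, and a match is not a measured binding site. Gata1 is known to have alternative first exons, and the table gives a single start for it.

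Of the 10 factors, 8 rose in dCKO tissue, Bcl11a fell and Myb did not pass the test (quasi-likelihood F test of edgeR, adjusted p below 0.05 by Benjamini-Hochberg over all 12710 genes). Among all tested genes 5% were called higher and 1.42% lower. The rises ran from 26.7-fold for Nfe2 down to 2.18-fold for Lmo2, with a median log2 fold change over the 10 of 3.23, against −0.00 over all genes tested. The dCKO libraries lay wholly above the controls for the same 8 genes and wholly below them for Bcl11a, where 19% of all tested genes lay wholly above and 18.6% wholly below. Red cell transcripts were higher in dCKO as well. Globins took 7.43% and 5.30% of counts in dCKO replicates 1 and 2, against 0.441%, 0.355% and 0.335% in control replicates 1, 2 and 3. In bulk tissue more cells of a type and more RNA per cell cannot be told apart.

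Gata1, the GATA factor without which red cell precursors die, had 71.2 and 54.1 CPM in dCKO replicates 1 and 2, against 4.47, 2.84 and 2.44 CPM in control replicates 1, 2 and 3. The lowest dCKO library stood 12.1 times above the highest control library. Its log2 fold change was 4.25 (SE 0.22, edgeR adjusted p = 5.63e-11). Zfpm1, the GATA1 cofactor FOG1, had 144 and 140 CPM in the dCKO libraries, against 31.3, 34.6 and 24.4 CPM in the controls. This cofactor had the highest mean level per kilobase of the 8 risers in both groups, and its rise of 2.23 on the log2 scale (SE 0.14, edgeR adjusted p = 6.07e-10) was smaller than that of Gata1. Gfi1b, the erythroid and megakaryocytic repressor, had 27.4 and 22.1 CPM in dCKO, against 0.394, 2.16 and 0.917 CPM in control. Those control values rest on 3, 16 and 6 reads, against 296 and 289 reads in dCKO, so the fold of 21.1 (log2 4.40, SE 0.35, edgeR adjusted p = 2.19e-08) has the widest error of the 10. The log2 fold change of Gfi1b was 3.97 without control replicate 1 and 5.25 without control replicate 2.

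Klf1, the activator of globin and red cell membrane genes, had 71.1 and 53.4 CPM in dCKO, against 5.78, 3.52 and 5.96 CPM in control. The log2 fold change was 3.61, with an SE of 0.21 (edgeR adjusted p = 2.70e-10). Both groups were tight beside the distance between them. Nfe2, the p45 subunit of NF-E2 in red cells and megakaryocytes, had 42.1 and 40.2 CPM in dCKO, against 2.23, 1.35 and 0.917 CPM in control. The fold was the largest of the 10 with all libraries (log2 4.74, SE 0.25, edgeR adjusted p = 8.85e-11), on 17, 10 and 6 reads in the controls and 455 and 525 in dCKO. Nfe2 exceeded Gfi1b by less than the SE of Gfi1b, and without control replicate 2 Gfi1b (log2 5.25) was above Nfe2 (4.66).

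The members of the TAL1 complex rose by unequal amounts. Tal1, the basic helix-loop-helix factor at the root of blood formation, had 129 and 113 CPM in dCKO, against 12.7, 9.60 and 9.93 CPM in control (log2 fold change 3.49, SE 0.15, edgeR adjusted p = 4.87e-12). Lyl1, its close relative, had 36.7 and 26.5 CPM in dCKO, against 3.81, 4.33 and 3.82 CPM in control (log2 fold change 2.98, SE 0.22, edgeR adjusted p = 1.02e-08). Per kilobase of exon, Tal1 lay above Lyl1 in dCKO (30 and 26.4 against 20.4 and 14.7 CPM per kb), while in control the ranges overlapped (2.97, 2.24 and 2.32 against 2.12, 2.40 and 2.12 CPM per kb). Lmo2, the bridging LIM protein that endothelium also expresses, had 25.2 and 24.6 CPM in dCKO, against 11.3, 16.5 and 6.26 CPM in control. The controls differed 2.63-fold among themselves, and the lowest dCKO library was 1.49 times the highest control. Lmo2 stood 1.12 higher on the log2 scale (SE 0.26, edgeR adjusted p = 0.0101) and lost its call without dCKO replicate 1 or 2 or control replicate 1 (adjusted p = 0.0823, 0.0562 and 0.0622).

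**Figure D1:**
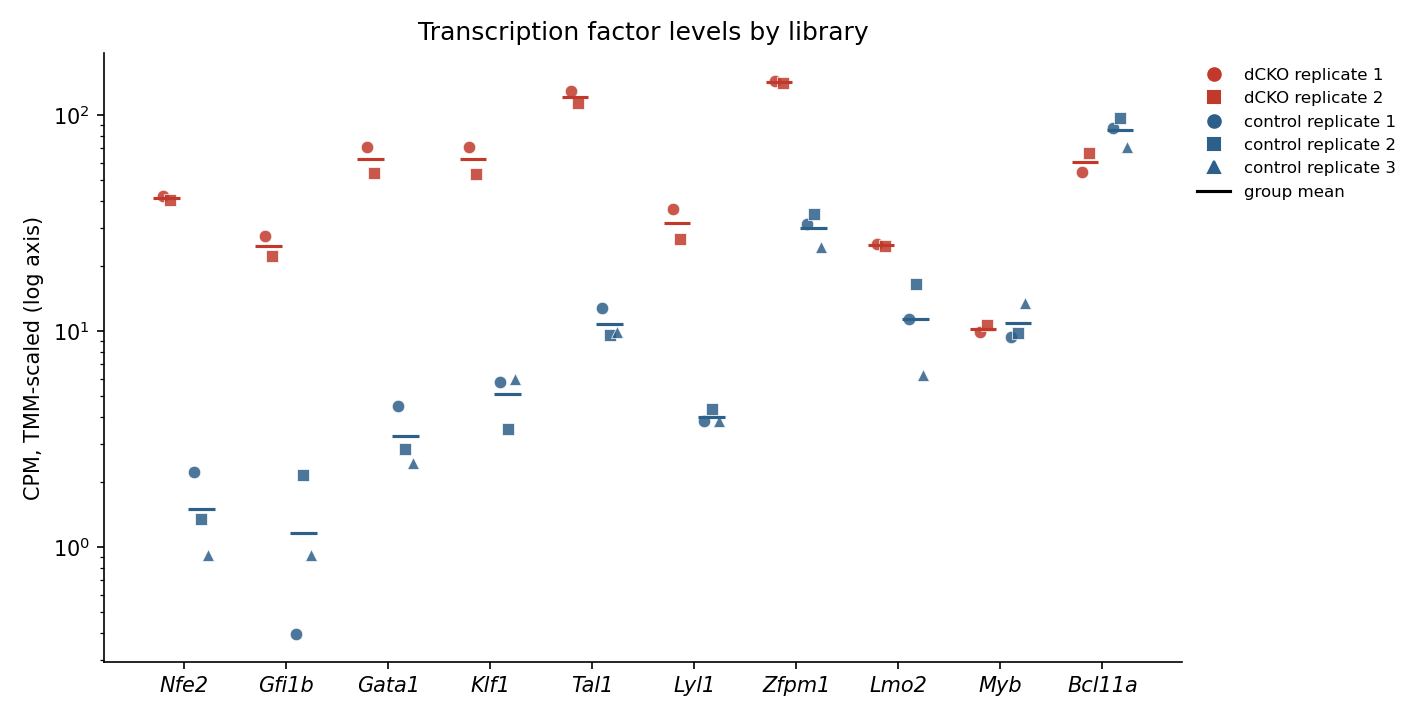
Level of each transcription factor gene by library, in TMM-scaled CPM on a log axis, with dCKO libraries to the left of control libraries, symbols for the replicate number and bars for group means. From Nfe2 to Lmo2 the dCKO points lie above all control points, the Myb points overlap and the Bcl11a points lie below.

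The other 2 factors, Myb and Bcl11a, did not rise. Myb had 9.89 and 10.6 CPM in dCKO, against 9.33, 9.74 and 13.4 CPM in control, so the groups overlapped. Its log2 fold change was −0.08 (SE 0.24, edgeR adjusted p = 0.890), and it was above zero without control replicate 3, at 0.09. Bcl11a had 54.2 and 66.7 CPM in dCKO, against 87.4, 97.1 and 71.0 CPM in control, a ratio of 0.710 (log2 −0.49, SE 0.14, edgeR adjusted p = 0.0461). That call was close to the threshold and was lost on removal of any single library other than control replicate 3 (adjusted p = 0.182 and 0.214 without control replicates 1 and 2, and 0.442 and 0.0733 without dCKO replicates 1 and 2), under the stricter filter (0.064) and with the trend of expression with GC content removed (0.114). Bcl11a is also known from neurons. The 9 neuronal marker genes summed to 56.9 and 58.9 CPM in dCKO, against 46.2, 57.8 and 46.9 CPM in control. Most of that sum came from Sox2, Isl1 and Tubb3 (20.1, 16.8 and 14.9 CPM in dCKO replicate 1). Only 4 of the 9 passed the filter on low counts, and 0 of these were called. Arch mesenchyme markers summed to 1841 and 1879 CPM in dCKO, against 2177, 2051 and 2117 CPM in control. Of these 9 markers Prrx1, Dlx5 and Dlx6 fell and 6 did not pass. Prrx1 had 444 and 537 CPM in dCKO, against 726, 586 and 651 CPM in control (edgeR adjusted p = 0.0442), and lost its call without dCKO replicate 1 or control replicate 1 (0.433 and 0.261), under the stricter filter (0.0638) and with the GC trend removed (0.181). Dlx5 (edgeR adjusted p = 0.0353) kept its call when control replicate 3 was removed (otherwise up to 0.309). The part of either tissue in the Bcl11a value was not tested. Antisense genes overlap exons of Myb (559 bases, Gm26577) and Bcl11a (316 bases, 4930538E20Rik) in GENCODE M21, and 4 exon bases of Lyl1 are shared with Nfix on the opposite strand. Whether the counting used strand is not stated, and reads in those stretches could belong to either gene.

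**Figure D2:**
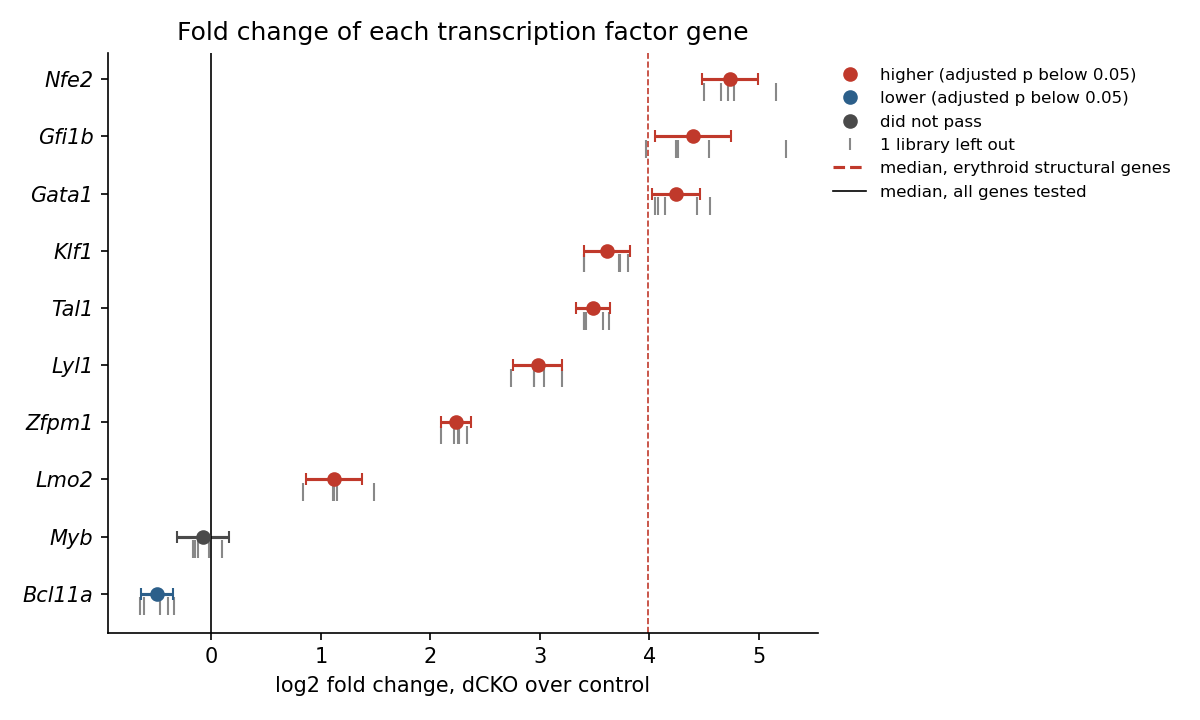
Log2 fold change of dCKO over control for each gene, with bars for the standard error, grey ticks for fits with 1 library left out, a solid line at the median of all genes tested and a dashed line at the median of the erythroid structural genes (3.99). Nfe2, Gfi1b and Gata1 lie to the right of the dashed line, the other 7 to its left, and no tick of the 7 strongest risers comes near zero.

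The authors' deposited table gave similar ratios of mean normalized counts. In it Gata1 was 18.8-fold, Klf1 12.2-fold, Nfe2 25.5-fold, Tal1 11.3-fold, Gfi1b 19.5-fold, Lyl1 7.83-fold, Zfpm1 4.77-fold and Lmo2 2.21-fold higher in dCKO. Myb had a ratio of 0.958 and Bcl11a of 0.722 in the authors' deposited table. With adjusted p-values of 0.0302 for Lmo2 and 0.409 for Bcl11a there, the authors' deposited table placed Lmo2 past the threshold and Bcl11a not.

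Per kilobase of exon, which allows levels to be compared between genes, the order of the 10 differed between the groups. In dCKO tissue Zfpm1 (41.8 CPM per kb, mean of 2), Klf1 (40.7), Gata1 (32.9) and Tal1 (28.2) led, followed by Nfe2 (18.1), Lyl1 (17.6), Gfi1b (13.6), Lmo2 (13.2), Bcl11a (7.95) and Myb (2.71). The ranges of neighbours in that order overlapped except between Tal1 and Nfe2, between Lmo2 and Bcl11a and between Bcl11a and Myb. In control tissue Bcl11a (11.2 CPM per kb, mean of 3) and Zfpm1 (8.88) came first, then Lmo2 (6.00), Klf1 (3.32), Myb (2.87), Tal1 (2.51), Lyl1 (2.21), Gata1 (1.71), Nfe2 (0.660) and Gfi1b (0.636). There the ranges of neighbours overlapped at every step other than Gata1 to Nfe2. Bcl11a was thus ninth per kilobase in dCKO and the highest in control tissue. Exon lengths were those of GENCODE M21, as the annotation behind the counts is not stated.

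To see which factors kept pace with red cell transcripts, counts of each were divided by the summed counts of 18 erythroid structural genes, among them Slc4a1, Alas2 and Ank1, a sum that held neither globins nor any of the 10 factors. That sum was 3638 and 3155 CPM in dCKO replicates 1 and 2, against 297, 278 and 246 CPM in control replicates 1, 2 and 3, a ratio of means of 12.4. Its tested genes rose unequally, from 2.50-fold for Gypc and 5.23-fold for Fech to 45.3-fold for Icam4, with a median log2 fold change of 3.99. Values on this scale depend on which genes are summed, and a sum without the weaker risers was not tested. Tal1 had 35.4 and 35.9 counts per 1000 erythroid counts in dCKO, against 42.9, 34.5 and 40.3 in control. Klf1 had 19.5 and 16.9 per 1000 in dCKO, against 19.5, 12.6 and 24.2 in control. For both the groups overlapped, with ratios of means of 0.908 and 0.972. Gfi1b overlapped too, at 7.52 and 7.01 per 1000 in dCKO and 1.33, 7.78 and 3.72 in control.

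Gata1 and Nfe2 were higher than in any control on this scale, with these genes in the sum. Gata1 had 19.6 and 17.1 counts per 1000 erythroid counts in dCKO, against 15, 10.2 and 9.93 in control (ratio of means 1.56). Nfe2 had 11.6 and 12.7 per 1000 in dCKO, against 7.52, 4.86 and 3.72 in control (ratio of means 2.26). Of all 12710 tested genes 0.338% lay wholly above the controls on this scale, while 98.4% lay wholly below them. Lyl1, with 10.1 and 8.40 per 1000 in dCKO against 12.8, 15.6 and 15.5 in control, was among those below. Zfpm1 lay further below, with 39.6 and 44.2 per 1000 in dCKO against 105, 125 and 99.3 in control, and Lmo2 further still, with 6.94 and 7.79 against 38.1, 59.3 and 25.4. Myb (ratio of means 0.0752) and Bcl11a (0.0580) had the lowest ratios of the 10. With 2 libraries against 3, an exact two-sided permutation test has 10 arrangements and cannot give a p below 0.2. Gata1 and Nfe2 each gave 0.2, as did Lyl1, Zfpm1, Lmo2, Myb and Bcl11a, so that value sets none of them apart. In the same test Klf1 gave 1, and Tal1 and Gfi1b gave 0.6.

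**Figure D3:**
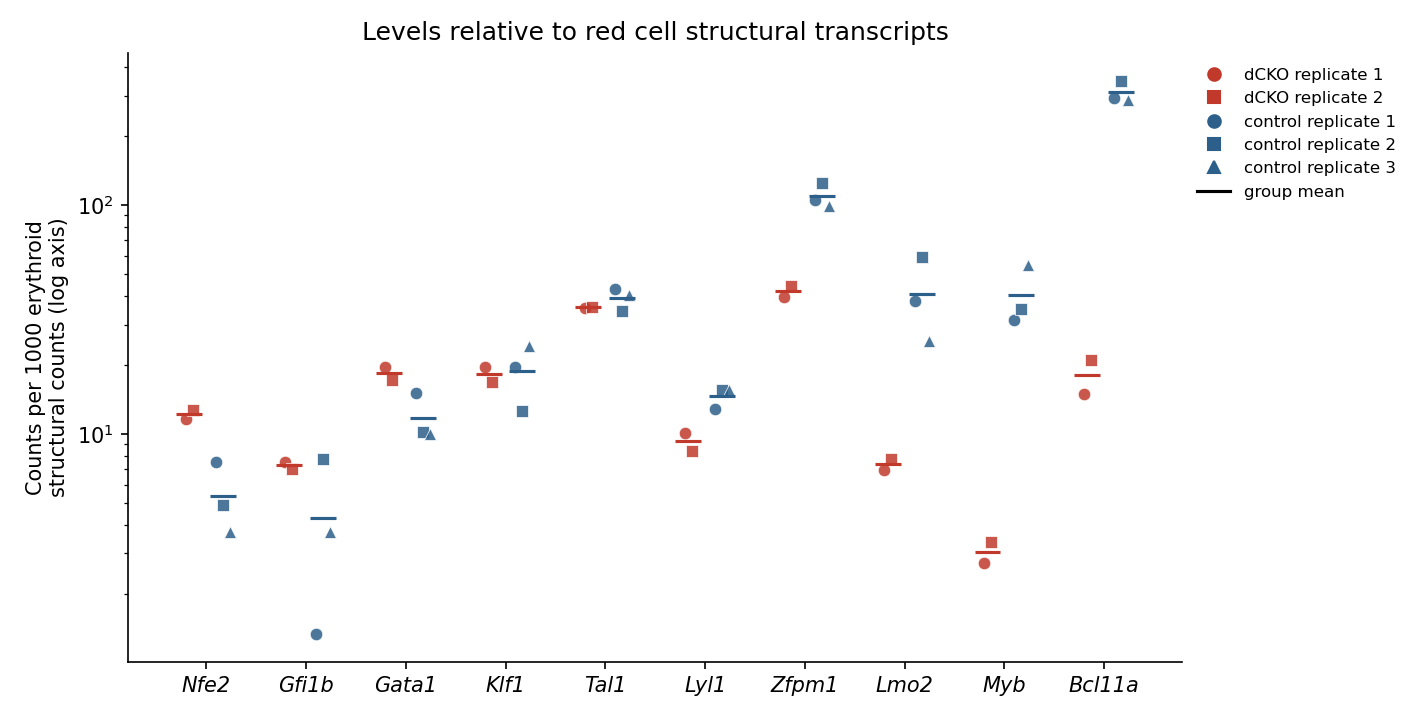
Counts of each transcription factor gene per 1000 counts of 18 erythroid structural genes, on a log axis, by library, with dCKO to the left of control and bars for group means. Gata1 and Nfe2 lie above the controls in both dCKO libraries, Klf1, Tal1 and Gfi1b overlap them, and Lyl1, Zfpm1, Lmo2, Myb and Bcl11a lie below.

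Within the dCKO group, replicate 1 held more of most of these transcripts than replicate 2. The ratio of replicate 1 to replicate 2 in CPM was 1.38 for Lyl1, 1.33 for Klf1, 1.32 for Gata1, 1.24 for Gfi1b and 1.14 for Tal1, beside 1.44 for the summed globins and 1.15 for the summed erythroid structural genes. It was 1.05 for Nfe2, 1.03 for Zfpm1 and for Lmo2, 0.936 for Myb and 0.812 for Bcl11a. The megakaryocyte markers went the other way, with a ratio of 0.513. Several of these factors, among them Nfe2, Zfpm1, Gfi1b and Tal1, are known from megakaryocytes as well. All 9 tested megakaryocyte markers rose (median log2 fold change 3.34), among them Itga2b (log2 3.90, SE 0.26, edgeR adjusted p = 1.83e-09), Itgb3 and Pf4. The markers summed to 140 and 273 CPM in dCKO, against 16.0, 26.0 and 17.1 CPM in control, with none of 12 at 0 in all libraries. The part of megakaryocytes in the values of these factors was not tested.

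By the distance between centred log2 CPM over the 5 libraries, the 3 genes most like Gata1 among 10737 candidates were Hba-x (distance 0.25), Trim10 (0.27) and Hbb-bh1 (0.32), a pair of embryonic globin genes and a gene known from late red cell maturation. Hba-x had 42061 and 30748 CPM in dCKO, against 2657, 2125 and 1947 CPM in control, and Trim10 had 74.5 and 50 CPM, against 4.86, 3.38 and 2.29 CPM. The genes nearest to Lmo2 were Kazald1 (distance 0.41), Pls1 (0.42) and Rnf144b (0.45), which shared its low value in control replicate 3 and did not pass the test (edgeR adjusted p = 0.0801, 0.108 and 0.113). Those nearest to Myb were Tln2 (0.05), Dusp7 (0.06) and Hilpda (0.07), each with its highest value in control replicate 3. With 5 libraries in 2 groups the likeness is a description of these libraries. The adult globin rows Hba-a1, Hba-a2, Hbb-b1 and Hbb-b2 were listed at 0 in all 5 libraries; they are close copies whose reads the counting could have left out, so the embryonic to adult balance that Bcl11a and Klf1 are known for could not be read.

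Most of the general partners of these factors did not pass the test, as 11894 of all 12710 tested genes did not. Of all tested genes 2738 had an unadjusted p below 0.05. Of 10 genes of the LIM and E-protein complexes, Cbfa2t3 rose and 9 did not pass (median log2 fold change 0.07), with 4 of the 10 at an unadjusted p below 0.05. DESeq2 called 2 of them, Tcf4 besides Cbfa2t3, and limma-voom called 1. Cbfa2t3, which encodes the ETO2 corepressor of the TAL1 complex, had 14 and 17.8 CPM in dCKO, against 3.68, 4.19 and 5.35 CPM in control (log2 1.86, SE 0.25, edgeR adjusted p = 5.24e-05). Ldb1, the LIM-binding partner of LMO2, had 433 and 393 CPM in dCKO, against 295, 300 and 369 CPM in control, and Tcf12 had 356 and 385 CPM, against 535, 473 and 414 CPM. Neither passed (edgeR adjusted p = 0.0849 and 0.0882). Their groups did not overlap, where 19% of all tested genes lay wholly above the controls and 18.6% wholly below. Of 18 genes of the LSD1, CoREST and NuRD corepressors that GFI1B, FOG1 and BCL11A are known to recruit, edgeR called 0, limma-voom 0 and DESeq2 1 (Hdac2), with 1 at an unadjusted p below 0.05 and a median of −0.00.

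Among 8 MAF, BACH and NFE2-like genes, Mafk and Mafg rose and 6 did not pass (median log2 fold change 0.08). Mafk, a small MAF partner of NFE2, had 24.3 and 20.0 CPM in dCKO, against 7.62, 9.20 and 11.0 CPM in control (log2 1.26, SE 0.21, edgeR adjusted p = 5.25e-04). Mafg had 26.1 and 25.5 CPM in dCKO, against 12.4, 13.9 and 21.2 CPM in control. Its call (edgeR adjusted p = 0.0481) was likewise lost unless control replicate 3 was the library removed, with adjusted p up to 0.242, and was also lost under DESeq2 (0.0681), library totals alone (0.0674) and removal of the GC trend (0.0951). Of 10 tested close paralogues of the factors, edgeR, DESeq2 and limma-voom each called 0, with 2 at an unadjusted p below 0.05, Lmo1 and Mybl2, and a median of 0.04. Gata2, the GATA factor of progenitors and endothelium, had 9.98 and 11.6 CPM in dCKO, against 12.4, 14.9 and 11.3 CPM in control, where Gata1 had risen 19.0-fold.

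Most other factors of blood and vessels did not pass the test, where 5% of all tested genes were called higher and 1.42% lower. At an unadjusted p below 0.05 stood 7 of 15 stem cell and endothelial factors and 4 of 8 myeloid and lymphoid factors. Over all 12710 tested genes 2738 did. Of 15 stem cell and endothelial factors, Runx1 rose (log2 1.603, SE 0.34, edgeR adjusted p = 0.00462) and its partner Cbfb (−0.51, SE 0.13, edgeR adjusted p = 0.0237) and the ETS factor Fli1 (−0.49, SE 0.14, edgeR adjusted p = 0.0412) fell, while 12 did not pass (median −0.03). Runx1 had 7.02 and 7.35 CPM in dCKO, against 2.23, 2.98 and 1.83 CPM in control, and lost its call without dCKO replicate 1 or 2 (adjusted p = 0.0529 and 0.0722). Cbfb kept its call when control replicate 3 was removed and lost it with any other library removed (up to 0.249). Fli1 kept its call when dCKO replicate 2 was the library removed and lost it with any other removed (up to 0.479). With the GC trend removed neither Cbfb (0.0746) nor Fli1 (0.155) passed, and Fli1 was not called under the stricter filter (0.0566). Ikzf1, a zinc finger factor of lymphoid and red cell development, had 45.1 CPM in each dCKO library, against 2.63, 5.68 and 2.75 CPM in control (log2 3.60, SE 0.24, edgeR adjusted p = 1.89e-09). In the main fit Ikzf1 was the single riser among 8 tested myeloid and lymphoid factors, of which Spi1 and Cebpb did not pass (edgeR adjusted p = 0.0886 and 0.0578). DESeq2 called 1 of the 8 and limma-voom 2, Cebpb (limma-voom adjusted p = 0.0478) besides Ikzf1. In edgeR Cebpb also passed with no filter (adjusted p = 0.015) and without control replicate 1 (0.0328), and Spi1 without control replicate 3 (0.0448).

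Among 16 tested regulators of globin switching and late red cell maturation, 6 rose, Lin28b fell and 9 did not pass (median log2 fold change 0.22). Of the 16, 8 had an unadjusted p below 0.05. The 6 were Trim58, Trim10, Ikzf1, E2f2, Zbtb7a and Foxo3. Foxo3 lost its call without dCKO replicate 2 or control replicate 1 or 2 and with the GC trend removed (edgeR adjusted p up to 0.342), and Lin28b without either dCKO library, without control replicate 1 and with the GC trend removed (up to 0.209). E2f2, a cell cycle factor used in terminal red cell maturation, had 61.4 and 56.1 CPM in dCKO, against 30.5, 31.4 and 30.4 CPM in control (log2 0.93, SE 0.14, edgeR adjusted p = 1.14e-04). Zbtb7a, which encodes a repressor of fetal globin genes in human cells, had 32.1 and 30.1 CPM in dCKO, against 13.4, 17.9 and 18.0 CPM in control. Sox6, a partner of BCL11A, had 18.1 and 20.9 CPM in dCKO, against 24.8, 25.3 and 35.9 CPM in control and did not pass (edgeR adjusted p = 0.0958).

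**Figure D4:**
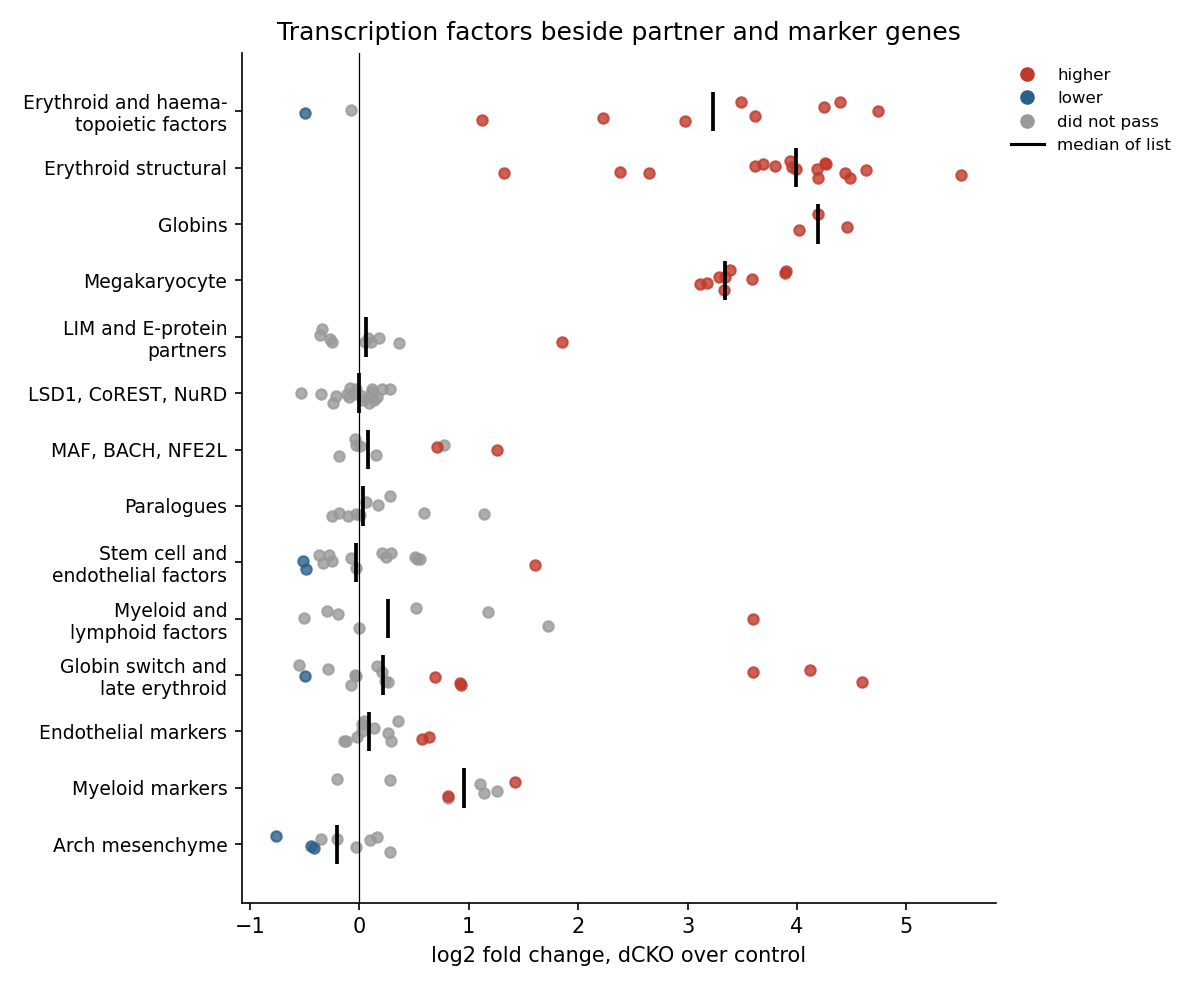
Log2 fold change of dCKO over control for the tested genes of each list, 1 point a gene (red higher, blue lower, grey did not pass), with black bars for list medians. The transcription factors spread from −0.49 to 4.74. The erythroid, globin and megakaryocyte lists have medians of 3.99, 4.19 and 3.34, and the partner and paralogue lists have medians near zero.

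Endothelium also expresses Lmo2, Lyl1 and Tal1. The 12 markers summed to 435 and 502 CPM in dCKO, against 436, 434 and 400 CPM in control, a ratio of means of 1.11 with none at 0 in all libraries. Egfl7 (log2 0.57, edgeR adjusted p = 0.0403) and Cldn5 (0.64, edgeR adjusted p = 0.0428) rose, 10 did not pass, and DESeq2 called 0. Egfl7 kept its call when control replicate 3 was removed (otherwise up to 0.190), and Cldn5 when control replicate 3 or dCKO replicate 2 was removed (otherwise up to 0.442). Neither passed with library totals alone (0.0647 and 0.0639) or with the GC trend removed (0.154 and 0.280). Of 8 tested myeloid markers Laptm5 and Coro1a rose (median 0.96), and the 12 in the table summed to 56.3 and 86.8 CPM in dCKO, against 36.8, 38.7 and 41.1 CPM in control. Of the 8 tested, 5 had an unadjusted p below 0.05. Coro1a lost its call without dCKO replicate 2 or control replicate 1 (adjusted p = 0.248 and 0.0617) and with the GC trend removed (0.0591). Lymphoid markers summed to at most 1.38 CPM in any library, with Cd3e, Cd3g and Rag2 at 0 in all 5. Of 6 progenitor and mast cell markers 2 were tested, Kit and Cd34. Kit had 44.3 and 42.3 CPM in dCKO, against 47.4, 44.4 and 39.7 CPM in control. Cd34 had 53.3 and 56.4 CPM in dCKO, against 71.1, 62.1 and 59.9 CPM in control. The Cd34 groups did not overlap, where 18.6% of all tested genes lay wholly below the controls. Neither gene was called by edgeR, DESeq2 or limma-voom, as Myb was not, with 0 of the 2 at an unadjusted p below 0.05. The part of endothelial and myeloid cells in the values of Lmo2, Lyl1 and Tal1 was not tested.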

How the data were processed

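Poly(A) RNA of mandibular tissue was sequenced in 2 dCKO and 3 control libraries, grouped by the titles in the labels. The authors deposited raw read counts per gene symbol, and a table of their own comparison in which, per the file headers, each gene has a signal (means of normalized counts), a fold (the ratio of the group means), the log2 of that ratio, a p-value and its adjusted form. Library preparation followed the Ion Total RNA-Seq v2 protocol, per the labels' protocols. Per the submitters' processing notes the build was mm9 and the tools included DESeq 1.16.0 and HTSeq 0.5.4p3. Neither aligner, annotation, counting mode nor strand setting is stated. Count columns headed WT were matched to the control titles on the replicate number.

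No pair of replicates agreed within sampling noise, so none was merged as a library deposited again; this does not show that they came from separate embryos. The counts were tested in edgeR 4.0.16 (R 4.3.3): filterByExpr (minimum count 10, minimum total 15), TMM scaling, glmQLFit and glmQLFTest (two-sided), Benjamini-Hochberg adjustment over 12710 genes and a threshold of 0.05, after the script was tested on simulated data. A standard error is |log2 fold change| divided by the root of F. CPM are TMM-scaled. Alternatives used RLE scaling, library totals alone, TMM without blood genes, DESeq2 1.42.0, limma-voom (limma 3.58.1), other filters, single libraries left out, the replicate number as a block and, added after the data were seen, removal of each library's trend with GC content (known for 94.8% of tested genes). A lone dCKO library, left when the other was removed, was assumed to vary as the controls do. Distances between genes used log2(CPM + 0.5). The row for reads in no gene took 41.9% of mean normalized counts in the authors' deposited table and is not in the count table.

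The members and lists were chosen with earlier results of these data known. Besides the 10 members, the genes named are, for each list, the 3 of smallest p, and the 3 nearest to Gata1, Lmo2 and Myb, averaging at least 5 CPM. Yap1, Wwtr1, Gata2, Sox6, Zbtb7a, Foxo3, Trim58, Lin28b, Gypc, Fech, Icam4, the adult globins and the markers at 0 were named after their values were seen. Isl1 was too.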

Additional observations from a re-analysis of the deposited data

How the results depend on the processing

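Gata1, Klf1, Nfe2, Tal1, Gfi1b, Lyl1 and Zfpm1 rose and passed under all 14 alternatives. Lmo2 passed in 11 of 14 and Bcl11a in 8 of 14, keeping their direction, with log2 fold changes from 0.83 to 1.49 and from −0.65 to −0.34. The 8 members called higher were 7 to 8 with a library left out, and the 1 called lower was 0 to 1, as well as 0 under the stricter filter (1 CPM in 2 libraries, mean of 5 CPM) and 0 with the GC trend removed. Myb, not called in any setting, had a log2 fold change of 0.10 under the replicate block and −0.17 to 0.09 with a library left out. Over all genes, 636 were higher and 180 lower. These became 469 lower with library totals alone, 305 lower with no filter, and 403 to 950 higher and 39 to 687 lower with a library left out. With library totals alone the median of all genes was −0.08. Of the other lists' genes, 43 were higher and 6 lower. The lower ones were 10 with library totals alone, 2 with the GC trend removed and 1 to 9 with a library left out.

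The replicate numbers were not taken to pair libraries, as nothing in the labels says so. Same-numbered libraries had deviations correlated at 0.0836 and −0.00424. With 2 dCKO libraries the deviations of 1 mirror those of the other (correlation −1), so these values do not settle whether libraries were paired. The replicate block gave 1200 higher and 921 lower genes and 13 lower list genes, kept the calls of the 10 members, and by construction takes control replicate 3 out of the contrast. Among genes that did not pass, the sign turned in Kit (0.00 under the stricter filter, 0.026 without the GC trend, −0.094 to 0.045 with a library left out), Elavl4 (0.12 under the replicate block, −0.926 to 0.010), Sox2 (−0.032 to 0.251 with a library left out), Tln2 (0.12 under the block, −0.145 to 0.108), Dusp7 (0.083, −0.177 to 0.077) and Hilpda (0.13, −0.126 to 0.118). The cause of these changes was not tested. Counts of 3 to 44 reads in the controls limit the folds of Gata1, Klf1, Nfe2 and Gfi1b.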
